A study of Mus musculus with 5 samples.

Results

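The CD antigens are cell surface proteins that carry a cluster-of-differentiation number, and their genes whose symbol is Cd followed by that number were examined in the lungs of mice with allergic airway inflammation. A gene was included if a probe of the array named it alone and if its symbol had this form, leaving out Cd74 and genes that are only partners or relatives of a CD antigen (Cd2ap, Cd2bp2, Cd3eap, Cd5l and Cd164l2). The array named 72 such genes, and 49 of them were measured on 4 or more of the 5 arrays, out of 9727 genes measured that often. Each of 5 mice of the inbred strain C3H had received ovalbumin, a hen egg protein that serves as a model allergen, first for sensitisation and then as a challenge, and its amplified lung RNA was hybridised on its own 2-colour array against 1 pool of amplified lung RNA from control C3H mice. The mice are numbered 1 to 5 as separate animals, the sources used here do not give the number of animals in the pool or the treatment of the control mice, and there is 1 group of arrays.

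CD antigens mark the lineages of leukocytes. On T cells the CD3 chains transmit the signal of the T cell receptor, and CD4 and CD8 bind MHC molecules beside it; on B cells CD79a and CD79b do the same work for membrane immunoglobulin, with CD22 damping it. Macrophages, dendritic cells and granulocytes carry scavenger receptors, lectins and inhibitory receptors such as CD163, the CD209 family and CD200R. In allergic airways, eosinophils, T helper type 2 cells, B cells and macrophages gather around bronchi and vessels, while the resting lung already holds many alveolar macrophages and lymphocytes.

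The values are the deposited log ratios of the 2 channels, taken as log2 (the base is not stated), after setting the median of each array to 0. The labels do not settle which channel is the numerator, so genes are placed on the negative or the positive side of that ratio, with no direction of change. The negative side is the one on which Retnla (-4.79 ± 0.30, SD, n = 5), Clca1 (-4.33 ± 0.40) and Muc5ac (-3.00 ± 0.55) lay, genes known to rise in allergic airways. An array gave values for 11778 to 13320 of 17280 probes, and the 10 pairs of arrays correlated at Pearson's r of 0.64 to 0.83 across probes, which are not independent replicates and share the pool. Mouse 1 stood apart by smaller ratios, with an SD over all probes of 0.20, against 0.32 to 0.38 in the others. Since the lung is a mixture of cells, more or fewer cells of a type and more or less RNA per cell cannot be told apart. Of the lung's own cells, 8 of 8 epithelial and 5 of 7 endothelial marker genes on the array had values on at least 4 arrays; a ratio gives no level, so the tissue could be checked no further. At the threshold given below, the epithelial markers were split, with 3 past it on each side, and of 3 red cell markers 1 passed, on the negative side. Of all genes, 15% passed on the negative and 12.3% on the positive side.

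In limma's moderated test against 0 with Benjamini-Hochberg adjustment over all genes (threshold 0.05), 25 of the 49 CD antigens (51%) lay past the threshold, where 27.3% of all 9727 genes did. On the negative side there were 20 CD antigens, or 40.8%, against a background of 15% of all genes. On the positive side there were 5, or 10.2%, close to the background of 12.3%. The median ratio of the CD antigens was -0.14, and that of all genes 0.00. The test takes the pool as 1 control sample, so it holds the spread among ova mice but not that among control mice. Of the 42 CD antigens with values in all mice, 38.1% were below 0 in every mouse and 14.3% above 0 in every mouse, against 21.7% and 19.3% of the 8042 genes measured in all mice. Without mouse 1, 19 CD antigens lay past the threshold on the negative and 5 on the positive side. The number on the negative side was 13 without mouse 3 and 13 without mouse 5, in fits where the count over all genes also dropped, from 1463 to 943 and 928.

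**Figure D1:**
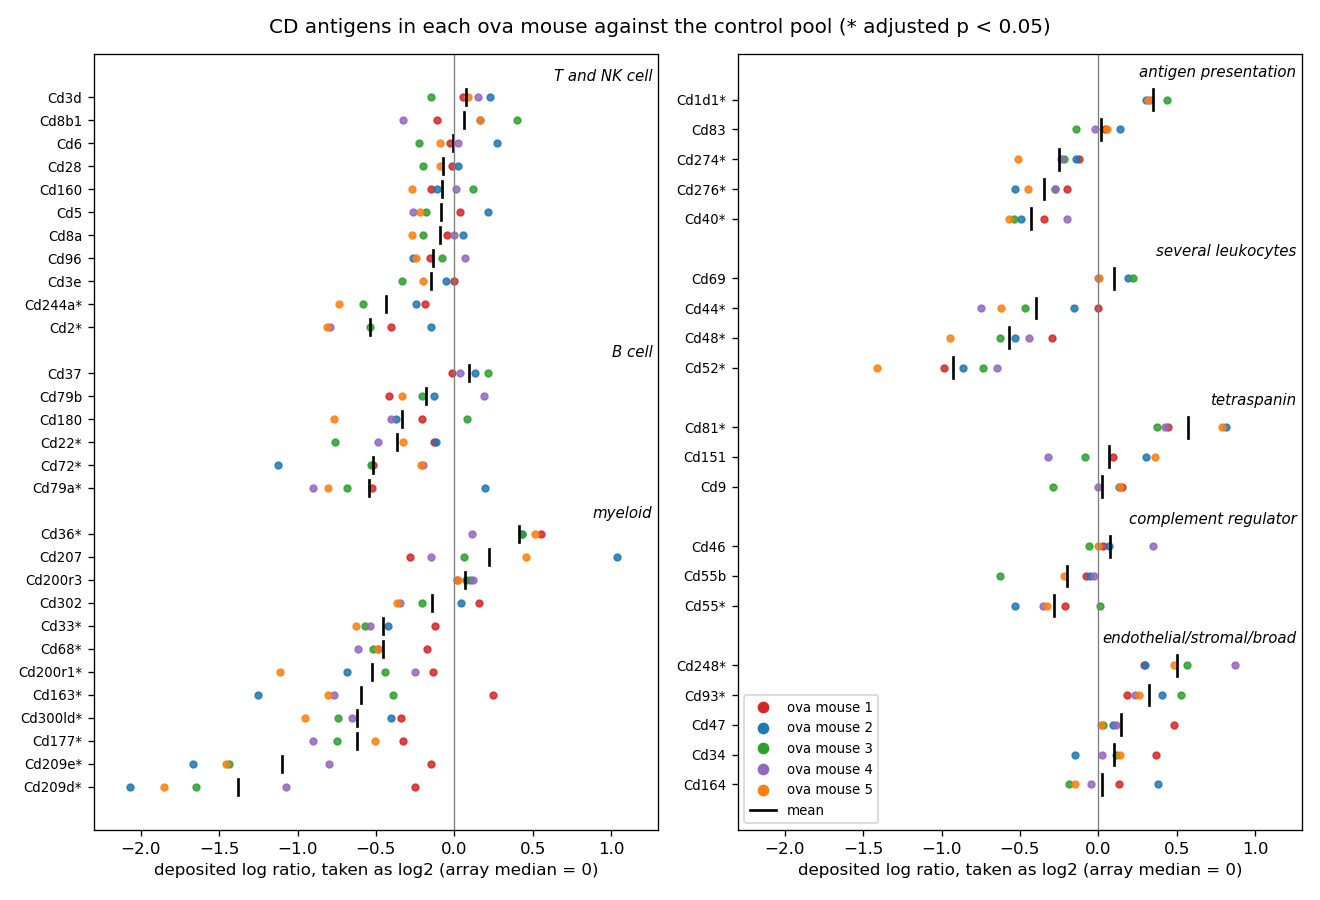
Log ratio (taken as log2, x axis, 0 at each array's median) of the 49 CD antigens in the 5 ova mice (coloured points), with the mean over mice (black bar) and an asterisk where limma's adjusted p was under 0.05. Cd209d and Cd209e lie farthest to the negative side, with mouse 1 near 0, while Cd3d, Cd5, Cd6, Cd8a and Cd8b1 have points on both sides of 0.

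The 3 lineages differed in their values. The median over 12 myeloid antigens was -0.49, that over 6 B cell antigens -0.35 and that over 11 T and NK cell antigens -0.08. Past the threshold on the negative side were 8 of 12 myeloid antigens (66.7%), 3 of 6 B cell antigens (50%) and 2 of 11 T and NK cell antigens (18.2%), the last being near the 15% of all genes. One myeloid antigen, Cd36, lay past it on the positive side, and 0 B cell and 0 T or NK cell antigens did, also at an unadjusted p under 0.05. Within mice, the median of the myeloid antigens was -0.14 in mouse 1, -0.43 in mouse 2, -0.48 in mouse 3, -0.58 in mouse 4 and -0.56 in mouse 5. The median of the T and NK cell antigens was -0.05, 0.02, -0.20, 0.01 and -0.22 in mice 1 to 5. The myeloid median was thus below the T and NK cell median in all 5 mice, with differences between -0.10 in mouse 1 and -0.58 in mouse 4. The T and NK cell median of mouse 4 leaves out Cd3e, Cd28 and Cd244a, which had no value there. The median of the B cell antigens was -0.31, -0.13, -0.37, -0.30 and -0.34. It was below the T and NK cell median in all 5 mice and above the myeloid median in mice 2 to 5, while in mouse 1 it was the lowest of the 3. No p is given for these medians, as the genes were chosen with results of these data known. Without mouse 1 the medians were -0.58 for myeloid, -0.39 for B cell and -0.10 for T and NK cell antigens.

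**Figure D2:**
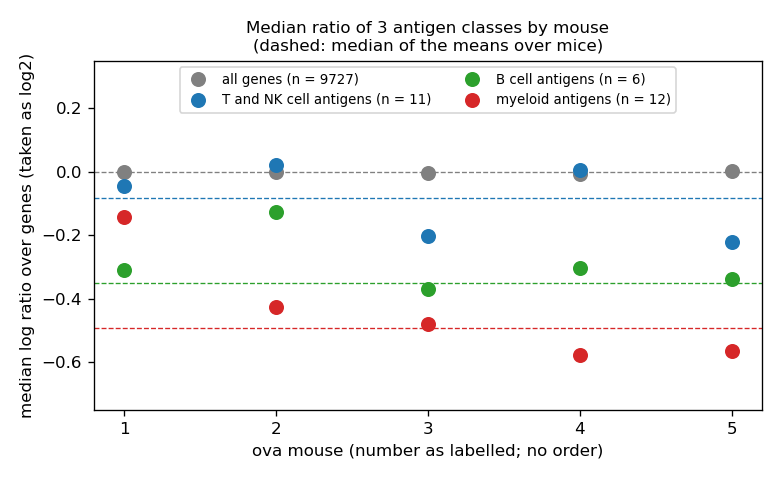
Median log ratio (taken as log2, y axis) over the measured T and NK cell, B cell and myeloid antigens and over all genes in each ova mouse (x axis, labelled numbers without order), with dashed lines at the median of the means over mice. The myeloid median lies below the T and NK cell median in every mouse, and in mouse 1 the B cell median is the lowest.

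The antigens farthest to the negative side were a pair of neighbouring genes, Cd209d and Cd209e, mouse relatives of the dendritic cell lectin DC-SIGN, which binds sugars on microbes. Their promoters are shown with 3 others, those of the macrophage gene Cd68, the B cell receptor gene Cd79a and the T cell receptor gene Cd3d, because these genes stand for the lineages compared. Each line gives the 250 bases before the RefSeq start in build GRCm38.p6, 5′ to 3′ on the strand of the gene, and capitals mark GAGGAA or its reverse complement TTCCTC, the core of the site bound by PU.1, a transcription factor of myeloid and B cells.
Cd209d (chr8:3878500-3878749, minus strand): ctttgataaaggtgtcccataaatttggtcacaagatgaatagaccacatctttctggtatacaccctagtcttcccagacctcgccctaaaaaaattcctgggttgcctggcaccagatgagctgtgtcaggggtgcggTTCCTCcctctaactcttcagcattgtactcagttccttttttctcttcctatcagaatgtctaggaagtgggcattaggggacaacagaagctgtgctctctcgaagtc
Cd209e (chr8:3854287-3854536, minus strand): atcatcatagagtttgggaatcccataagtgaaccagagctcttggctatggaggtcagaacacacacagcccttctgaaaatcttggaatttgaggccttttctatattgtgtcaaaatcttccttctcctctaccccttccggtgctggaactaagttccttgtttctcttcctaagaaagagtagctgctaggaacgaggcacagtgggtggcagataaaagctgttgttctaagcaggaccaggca
Cd68 (chr11:69666171-69666420, minus strand): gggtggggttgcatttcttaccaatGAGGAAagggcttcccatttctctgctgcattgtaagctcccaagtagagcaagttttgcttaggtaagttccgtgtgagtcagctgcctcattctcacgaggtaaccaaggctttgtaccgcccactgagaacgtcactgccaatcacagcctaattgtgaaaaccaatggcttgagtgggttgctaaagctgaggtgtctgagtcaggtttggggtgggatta
Cd79a (chr7:24897247-24897496, plus strand): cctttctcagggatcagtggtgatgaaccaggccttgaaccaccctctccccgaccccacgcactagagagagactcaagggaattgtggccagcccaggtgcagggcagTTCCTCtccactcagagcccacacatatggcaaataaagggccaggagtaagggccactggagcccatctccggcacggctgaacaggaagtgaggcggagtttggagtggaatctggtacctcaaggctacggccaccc
Cd3d (chr9:44981536-44981785, plus strand): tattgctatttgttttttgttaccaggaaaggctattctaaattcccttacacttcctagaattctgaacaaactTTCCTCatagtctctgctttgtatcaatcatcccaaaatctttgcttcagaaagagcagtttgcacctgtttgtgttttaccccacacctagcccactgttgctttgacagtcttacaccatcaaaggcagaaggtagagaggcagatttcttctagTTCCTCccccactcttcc

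The Cd209d and Cd209e windows were identical in 57.5% of the columns of a global alignment with 70 gap columns. The windows of Cd3d and Cd3e, aligned in the same way, were identical in 49.3%. GAGGAA was found on either strand in the window of Cd209d but not in that of Cd209e. RefSeq promoters were found for 36 of the 49 CD antigens, 40 windows in all, and 18 of these (45%) held the motif, as did 23.3% of the 32851 promoter windows of all genes. By lineage it was in 7 of 11 myeloid, 3 of 6 B cell and 5 of 8 T and NK cell windows. By call it was in 9 of 16 windows of antigens on the negative side and in 0 of 2 on the positive side, those of Cd36 and Cd81. Windows of uncalled antigens also held it, those of Cd160, Cd164, Cd200r3, Cd207, Cd37, Cd3d, Cd3e, Cd5 and Cd8a. These counts are few and were not tested. Of 9 motifs searched, CCCNNGGG, the core of the site of the B cell factor EBF1, was in 1 of 6 B cell windows (Cd22), and TTCNNNNGAA, a site form preferred by the interleukin-responsive factor STAT6, was in 3 of 40 windows (Cd209e, Cd44 and Cd96). Over all promoters those shares were 11.8% and 5.9%, and both motifs are their own reverse complement. Of the other 6 motifs, read on either strand, GGAAGT, which can overlap GAGGAA, was in 15 of the 40 windows (19.7% of all promoters), and the NF-kB site form GGGNNNNNCC in 20 (45.8%). The TATA box form TATAAA was in 3 (12.4%), the AP-1 site form TGANTCA in 3 (6.7%), the C/EBP site form TTNNGCAA in 7 (9.6%) and the STAT site form TTCNNNGAA in 3 (7.0%). A match describes the letters of the window and shows no binding.

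Cd209d had ratios of -0.25, -2.07, -1.65, -1.07 and -1.86 in mice 1 to 5, a mean of -1.38 ± 0.73 (SD; 2.6-fold if the base is 2; limma adjusted p = 0.00531). Cd209e had -0.15, -1.67, -1.44, -0.80 and -1.46, a mean of -1.10 ± 0.62 (adjusted p = 0.00684). Both were on the negative side in every mouse, nearest to 0 in mouse 1 and farthest in mouse 2, and the order of the 5 mice was the same for both. They are related genes, and whether their probes cross-hybridise was not tested. Of the rest of this gene cluster, Cd209a and Cd209b had a value in 1 mouse each (0.09 and -0.12) and Cd209c in 2 (-0.05 and 0.00), so the cluster could be compared no further.

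Among scavenger receptors and macrophage markers, Cd68, a lysosomal glycoprotein of macrophages, had -0.17, -0.49, -0.52, -0.61 and -0.49 (mean -0.46 ± 0.17, limma adjusted p = 0.003). Mouse 1 was the nearest to 0, and mice 2 to 5 lay close together. Cd163, the receptor through which macrophages take up haemoglobin bound to haptoglobin, had 0.25, -1.25, -0.39, -0.77 and -0.81, so that mouse 1 was on the other side. Its mean was -0.59 ± 0.56 with an adjusted p of 0.0464 in limma's test; without mouse 1 the mean was -0.80 (adjusted p = 0.00354), and its call was lost under 7 of 13 alternatives, with adjusted p-values up to 0.141. Cd36, the scavenger receptor for fatty acids and oxidised lipoproteins, which capillary endothelium, fat cells and platelets carry besides macrophages, was the only one of the 12 myeloid antigens past the threshold on the positive side. It had 0.56, 0.43, 0.43, 0.12 and 0.52 (mean 0.41 ± 0.17, limma adjusted p = 0.0047). Endothelial markers lay on the same side: 4 of 5 measured passed there, against 12.3% of all genes. The medians over these markers were 0.21 to 0.87 in the 5 mice, and the part of endothelium in the value of Cd36 was not tested. Cd14, the co-receptor for bacterial lipopolysaccharide, had values in only 2 mice (-0.06 and -0.44).

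The inhibitory and paired receptors of myeloid cells were also found mainly on the negative side. Cd33, a sialic acid-binding receptor, had -0.12, -0.43, -0.57, -0.54 and -0.63 (mean -0.46 ± 0.20, limma adjusted p = 0.00465). Cd300ld, a member of the CD300 family of paired receptors, had -0.34, -0.40, -0.74, -0.65 and -0.96 (mean -0.62 ± 0.25, adjusted p = 0.00286). Both were below 0 in every mouse, with mouse 1 nearest to 0 and mouse 5 farthest. Cd200r1, the receptor that restrains macrophages when it binds CD200, had -0.14, -0.69, -0.44, -0.25 and -1.12, a mean of -0.53 ± 0.39 (limma adjusted p = 0.0214; 0.0695 without mouse 2 and 0.062 without mouse 3). Cd200r3, which is known from mast cells and basophils and lies near it with 2 genes between them, gave 0.07 ± 0.05 and did not pass (limma adjusted p = 0.283). This small SD is that of the mean of 2 probes, which lay on opposite sides in mice 1, 4 and 5: probe 7908 had 0.13, -0.23 and 0.18 there, and probe 9035 -0.10, 0.47 and -0.13. Cd177, a surface protein of neutrophils, had -0.33, -0.75, -0.90 and -0.50 in mice 1, 3, 4 and 5 (mean -0.62 ± 0.25, n = 4, limma adjusted p = 0.00501). Of the 8 myeloid antigens past the threshold on the negative side, 8 had their smallest ratio in mouse 1, with a median of -0.16 there and of -0.70 for the mean of mice 2 to 5. In all 1434 called genes of that side with a value in mouse 1, these medians were -0.20 and -0.39, and 807 had their smallest ratio there. Of the 20 CD antigens called negative, 13 did.

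Cd302, a lectin receptor of macrophages and dendritic cells, and Cd207, langerin, the lectin of Langerhans cells and airway dendritic cells, did not pass. Cd302 was between -0.37 in mouse 5 and 0.16 in mouse 1 (mean -0.14). Cd207 was the most variable of the uncalled antigens, from -0.28 in mouse 1 to 1.04 in mouse 2 (mean 0.22 ± 0.53, limma adjusted p = 0.378).

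**Figure D3:**
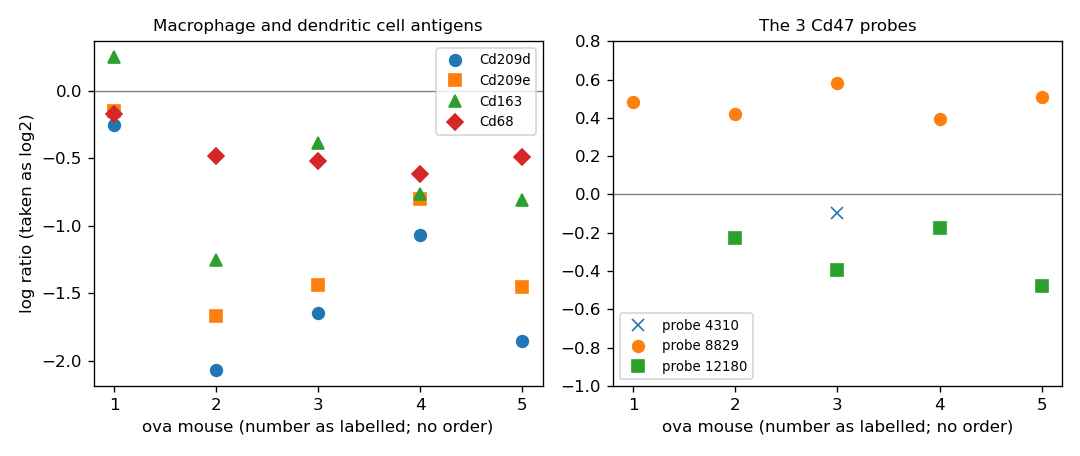
Left, log ratios (taken as log2) of 4 myeloid antigens in each ova mouse; the Cd209d and Cd209e points keep the same order of mice, and Cd163 lies above 0 in mouse 1 only. Right, the 3 probes of Cd47 in the same mice; probe 8829 lies above 0 in 5 mice and probe 12180 below 0 in the 4 mice that measured it.

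Myeloid genes with other symbols were read for comparison from a list drawn up with earlier results known. Of 21 measured, 13 (61.9%) were called negative and 0 positive by limma, against 15% and 12.3% of all genes. Their median was -0.30, the value of Lbp, which codes for a secreted lipopolysaccharide-binding protein and not for a surface antigen. At an unadjusted p under 0.05 there was 1 on the positive side, Trem2. The 4 of smallest p were the galactose lectin gene Clec10a (CD301, -1.72 ± 0.52), the Fc receptor gamma chain gene Fcer1g (-0.69 ± 0.23), the high-affinity IgG receptor gene Fcgr1 (CD64, -1.25 ± 0.52) and Sirpa (-0.63 ± 0.28), the receptor that binds CD47; limma's adjusted p was 0.00351 or less for each. The integrin genes Itgam (CD11b, -0.15, n = 4) and Itgax (CD11c, -0.16), which mark monocytes, granulocytes, dendritic cells and alveolar macrophages, did not pass (adjusted p = 0.123 and 0.0674).

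B cell antigens fell into those of the receptor and those that tune it. Cd79a, the receptor's signalling chain, had -0.52, 0.20, -0.68, -0.90 and -0.81 in mice 1 to 5, a mean of -0.54 ± 0.44 (limma adjusted p = 0.0279). It was below 0 in 4 mice and above 0 in mouse 2. Its partner chain Cd79b had -0.42, -0.13, -0.21, 0.19 and -0.34 and did not pass (mean -0.18 ± 0.24, adjusted p = 0.156, 95% interval -0.38 to 0.02). The inhibitory co-receptor gene Cd22 had -0.13, -0.12, -0.76, -0.49 and -0.33 (mean -0.36 ± 0.27, limma adjusted p = 0.0248), and Cd72, another inhibitory receptor of B cells, had -0.52, -1.12, -0.53, -0.20 and -0.21 (mean -0.52 ± 0.38, adjusted p = 0.02). Both were below 0 in every mouse, but different mice were farthest from 0: mouse 3 for Cd22, mouse 2 for Cd72 and mouse 4 for Cd79a. Cd180, a Toll-like receptor homologue of B cells, gave -0.33 ± 0.31 just short of the threshold (limma adjusted p = 0.052), and the tetraspanin Cd37 gave 0.09 ± 0.10 (n = 4).

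The B cell calls depended on which mice were included. Cd79a lost its call without mouse 1, 3, 4 or 5, Cd22 without mouse 3, 4 or 5 and Cd72 without mouse 3, with limma adjusted p-values up to 0.0992, 0.075 and 0.0685. Cd180 gained one under 6 of 13 alternatives, with adjusted p-values of 0.0234 to 0.134 over all of them, and Cd79b gained one without mouse 4 (mean -0.27, limma adjusted p = 0.0255; 0.0255 to 0.364 over its 13 alternatives). Of 11 other B cell genes measured, 10 (90.9%) were called negative and 1, Vpreb3 (0.32), positive, against 15% and 12.3% of all genes. Their median was -0.36. They include signalling genes of the B cell receptor such as Btk and Syk, and whether their RNA came from B cells was not tested. In these genes with other symbols the B cell median over gene means was below the myeloid one (-0.30). This is the reverse of the order among the Cd-named antigens, but that myeloid median is the value of Lbp, which is no surface antigen. The mean over gene means had the other order, at -0.59 for the myeloid and -0.35 for the B cell genes. The order of the medians also did not hold within every mouse. The myeloid median was the lower in mouse 2 (-0.515 against -0.353), mouse 4 (-0.414 against -0.3935) and mouse 5 (-0.51 against -0.494). The B cell median was the lower in mouse 1 (-0.249 against -0.145) and, barely, in mouse 3 (-0.37 against -0.3685). The 4 of smallest p were the kinase gene Btk (-0.62 ± 0.16), the receptor gene Tnfrsf13b (TACI, -0.52 ± 0.19), the complement receptor gene Cr2 (CD21, -0.28 ± 0.07) and the IgM heavy chain gene Ighm (-0.55 ± 0.29). Ms4a1, the gene of the B cell antigen CD20, had -0.13, 0.01, -0.72, -0.70 and -0.68 (limma adjusted p = 0.0298). Like Cd79a, it was above 0 in mouse 2 alone. In the B cell antigens past the threshold, mouse 1 was not the smallest: their median was -0.52 in mouse 1 and -0.52 for the mean of mice 2 to 5, over 3 genes.

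T cell antigens of the receptor complex did not pass the test over all mice. Cd3d had 0.05, 0.23, -0.15, 0.15 and 0.09 (mean 0.07 ± 0.14, limma adjusted p = 0.405, 95% interval -0.07 to 0.21), and its genome neighbour Cd3e had -0.01, -0.05, -0.33 and -0.20 in mice 1, 2, 3 and 5 (mean -0.15 ± 0.15, n = 4, adjusted p = 0.157, 95% interval -0.31 to 0.01). Both CD8 chains were near 0, Cd8a at -0.09 ± 0.14 and Cd8b1 at 0.06 ± 0.28, and Cd8b1 changed side between mice. The Cd8a probe lies 12 IDs from that of the strongly negative gene Tff2 (-3.32). It is the only tested CD antigen probe at 6, 12, 18 or 24 IDs from a probe of another gene beyond 2 in size. Cd5 and Cd6, related receptors that damp T cell receptor signals and lie next to each other in the genome, gave -0.08 ± 0.20 and -0.01 ± 0.18. The co-stimulatory receptor gene Cd28 gave -0.07 ± 0.10 (n = 4), and the NK and T cell receptor genes Cd96 and Cd160 gave -0.14 ± 0.14 and -0.08 ± 0.15; without mouse 4, Cd96 passed (limma adjusted p = 0.0492). For these 9 genes limma's 95% intervals reached from -0.31 at the lowest to 0.29 at the highest, and differences of that size remain possible. Several other T cell antigens could not be tested: Cd4 had a value in 1 mouse (0.04), Cd3g, Cd27 and Cd40lg in 2 each, Cd247, the zeta chain, in 3 (0.03, -0.04 and 0.18), and Cd7 in 0.

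Past the threshold among T and NK cell antigens were Cd2 and Cd244a. Cd2, an adhesion receptor of T and NK cells that binds CD48 in mice, had -0.40, -0.15, -0.54, -0.80 and -0.81 (mean -0.54 ± 0.28, limma adjusted p = 0.00645). Cd244a, the receptor 2B4 of NK cells and some T cells, which also binds CD48, had -0.19, -0.24, -0.59 and -0.73 in mice 1, 2, 3 and 5 (mean -0.44 ± 0.27, n = 4, limma adjusted p = 0.0194); its call was lost without mouse 3 or mouse 5 (adjusted p up to 0.0847). Their ligand Cd48, carried by most leukocytes and near Cd244a in the genome with 2 genes between them, had -0.30, -0.53, -0.63, -0.44 and -0.94 (mean -0.57 ± 0.24, adjusted p = 0.00356). All 3 genes of this receptor and ligand group were below 0 in every mouse that measured them.

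Of 15 other T and NK cell genes measured, 6 (40%) were called negative and 0 positive by limma, against 15% and 12.3% of all genes. Their median was -0.18, and at an unadjusted p under 0.05 the positive side also held 0. Those of smallest p were the adaptor gene Lcp2 (-0.74 ± 0.25), which myeloid cells and platelets also use, the activation receptor genes Tnfrsf4 (OX40, -0.49 ± 0.19) and Tnfrsf9 (4-1BB, -1.20 ± 0.65), and the adaptor gene Sh2d1a (SAP, -0.50 ± 0.26), which acts at CD244 and related receptors. Lat, the adaptor of the T cell receptor, gave 0.00 ± 0.15, and Gata3, the transcription factor of type 2 T cells, -0.02 ± 0.25 (n = 4).

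**Figure D4:**
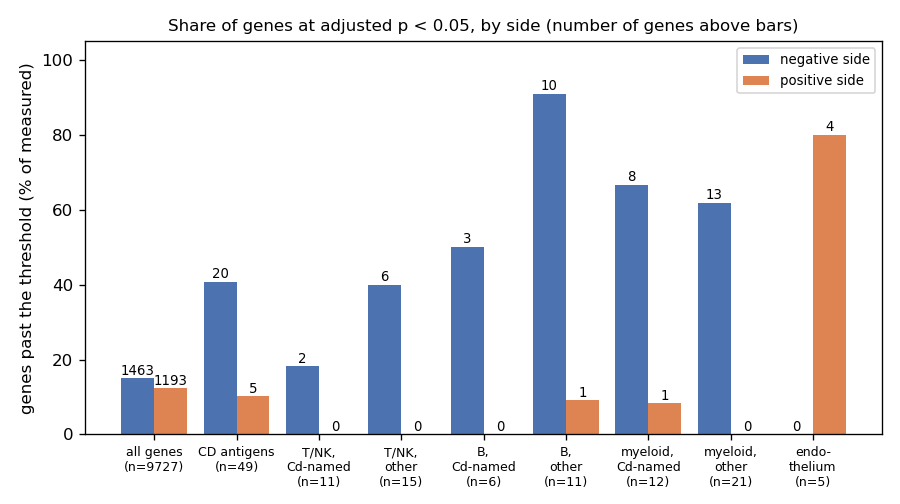
Share of measured genes (y axis, percent) with limma's adjusted p under 0.05 on the negative and positive side, for all genes, all CD antigens, each lineage's Cd-named antigens, genes of the same lineage with other symbols, and endothelial markers; numbers above bars count genes. Myeloid and B cell lists stand above the 15% of all genes on the negative side, and Cd-named T and NK cell antigens stand near it. The T and NK cell genes with other symbols also stand above it (6 of 15, 40%).

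Antigens shared by several leukocyte types included the third most negative mean of all 49. Cd52, a small glycoprotein of lymphocytes, monocytes and eosinophils, had -0.98, -0.87, -0.74, -0.64 and -1.41 (mean -0.93 ± 0.30, limma adjusted p = 0.00125, the smallest of the 49). Its ratio in mouse 1 was the second largest in size, whereas the 8 myeloid antigens called negative had their smallest ratio there. So did 807 of the 1434 genes called negative with a value in mouse 1. Cd44, the hyaluronan receptor of activated leukocytes and epithelium, had 0.00, -0.16, -0.47, -0.75 and -0.62 (mean -0.40 ± 0.31, adjusted p = 0.029 in limma's test); it lost its call without mouse 3, 4 or 5. Cd69, an early activation marker, gave 0.10 ± 0.12 (n = 4) and did not pass.

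Antigens of antigen presentation and co-stimulation split between the sides. Cd40, through which T cells activate B cells and dendritic cells, had -0.35, -0.49, -0.54, -0.20 and -0.57 (mean -0.43 ± 0.15, limma adjusted p = 0.00304). The B7 family genes Cd274, the inhibitory ligand PD-L1, and Cd276, B7-H3, had means of -0.25 ± 0.16 and -0.35 ± 0.14 and were below 0 in every mouse (adjusted p = 0.0244 and 0.00543); Cd274 lost its call without mouse 3, 4 or 5. Cd1d1, which presents lipids to natural killer T cells, lay on the other side, with 0.30, 0.44, 0.33 and 0.32 in mice 2 to 5 (mean 0.35 ± 0.06, n = 4, limma adjusted p = 0.00445). The 4 values lay close together. Cd83, a marker of mature dendritic cells, gave 0.01 ± 0.11. The co-stimulatory genes Cd80 and Cd86 had values in 1 mouse and 0 mice.

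Antigens that are not particular to leukocytes lay on both sides. Cd81, a tetraspanin of nearly all cells, had 0.45, 0.82, 0.37, 0.43 and 0.79 (mean 0.57 ± 0.21, limma adjusted p = 0.00249), the highest mean of the 49. The tetraspanins Cd9 (0.03 ± 0.19) and Cd151 (0.07 ± 0.28) did not pass. Cd248, endosialin of pericytes and fibroblasts, had 0.29, 0.30, 0.57, 0.87 and 0.49 (mean 0.50 ± 0.24, adjusted p = 0.00519 in limma's test), and Cd93, a C1q-receptor-like protein of endothelium and myeloid cells, had 0.19, 0.41, 0.53, 0.24 and 0.26 (mean 0.32 ± 0.14, adjusted p = 0.00691). Both were above 0 in every mouse, the side of the endothelial markers. Cd34, carried by endothelium and progenitors, gave 0.10 ± 0.19, and Cd164, a sialomucin, 0.03 ± 0.23. Of the complement regulators, Cd55, which speeds the decay of the C3 convertase, gave -0.28 ± 0.20 (limma adjusted p = 0.0271, lost without mouse 2, 4 or 5), its neighbouring copy Cd55b -0.20 ± 0.25 (adjusted p = 0.134) and Cd46 0.08 ± 0.16.

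The mean of Cd47, the ligand of SIRP-alpha that protects cells from being engulfed, hid probes that disagreed. Averaged over its 3 probes Cd47 gave 0.15 ± 0.19 and did not pass (limma adjusted p = 0.174). Probe 8829 had 0.48, 0.42, 0.58, 0.39 and 0.51, above 0 in all mice. Probe 12180 had -0.23, -0.39, -0.17 and -0.48 in mice 2 to 5, below 0 in each. With probe 8829 alone, Cd47 gave 0.48 and passed (adjusted p = 0.0008), so its side depends on the probe. Of the other CD antigens measured, Cd200r3 alone had values from more than 1 probe, as given above.

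The 23 CD antigens on the array that could not be tested had a value on 3 arrays (4 genes), 2 (6 genes), 1 (4 genes) or 0 (9 genes). By lineage these were 6 of 17 T and NK cell, 0 of 6 B cell and 5 of 17 myeloid antigens. Just outside the minimum of 4 arrays, Cd82 had -0.09, -0.82 and -0.65, Cd70 -0.15, 0.11 and -0.22, and Cd300lg 0.05, -0.15 and -0.01, beside Cd247 given above. Just inside it, with 4 values, were Cd1d1, Cd3e, Cd28, Cd37, Cd69, Cd177 and Cd244a, given above.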

How the data were processed

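Lung RNA of 5 ova mice, each against 1 control pool, was measured on 5 two-colour arrays, 1 per mouse. The deposited table holds the authors' log ratios, read as log2; the sources used here do not give base, numerator, dyes, background correction, normalization or spot intensities. The number of arrays limits precision. Probes were named from the platform annotation, with 1 symbol for 14722 of 17280 probes; 14445 had a RefSeq gene identifier, which changed 0 symbols. Arrays were centred on their medians, probes averaged per gene, and 9727 genes with values on at least 4 arrays tested with limma 3.58.1 in R 4.3.3 (lmFit, eBayes, two-sided against 0, Benjamini-Hochberg over all genes). The fit was also run on simulated data with independent noise, which cannot test for an error shared by all arrays through the pool. Members, lineage classes and other lists were chosen with earlier results of these data known. Named were all called members, all measured T and NK cell, B cell and myeloid members, and 12 others fixed by name, where measured. In the T and NK cell, B cell and myeloid comparison lists the 4 genes of smallest p were named. Epithelial, endothelial and red cell markers were given as groups without names. Other genes named were chosen after their values were seen. Alternatives were other normalizations, blank filters, variance models, probe choices, a minimum size and leaving out each mouse. Genome coordinates are those of RefSeq promoters only.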

Additional observations from a re-analysis of the deposited data

Results flagged for a closer look

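In 3 of the 49 CD antigens 1 mouse lay far from the others by Dixon's criterion, which chance meets in about 1 of 20 groups. Cd68 had -0.17 in mouse 1, against -0.61 to -0.49 in the others. Cd36 had 0.12 in mouse 4, against 0.43 to 0.56. Cd47 had 0.48 in mouse 1, against 0.02 to 0.11; in mouse 1 only probe 8829 of Cd47 had a value, while the other mice average it with probe 12180 on the negative side.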

How the results depend on the processing

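Of the 25 CD antigens past the threshold, 16 kept their call under every alternative that gave a value other than the minimum size below, 9 lost it under at least 1 of these and 0 changed side; 4 of the 24 others passed under some of them. Leaving out 1 mouse gave 13 to 19 antigens on the negative and 5 to 5 on the positive side, with medians of -0.58 to -0.43 for myeloid, -0.39 to -0.30 for B cell and -0.10 to -0.05 for T and NK cell antigens. With limma's treat at a minimum size of 0.5, 0 antigens passed on either side, so that all 25 lost their call (3 negative and 0 positive at an unadjusted p under 0.05); of all genes 63 negative and 6 positive did. The other alternatives for normalization, blanks, variance and probes left both counts within 1.5 times, at 19 to 21 and 4 to 6. No paired analysis was possible because there is 1 group of arrays. Without intensities, faint spots show only as blanks.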
